A study of Homo sapiens with 12 samples.

Results

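The genes described here are 10 long noncoding RNAs that carry small nucleolar RNAs (snoRNAs) in their introns: GAS5, ZFAS1, SNHG1, SNHG5, SNHG6, SNHG7, SNHG8, SNHG12, SNHG29 and EPB41L4A-AS1. They were the rows of the deposited table whose Ensembl identifier maps to these symbols, 10 of 63036 identifiers, and each of the 10 passed the filter on low values and was among the 15584 genes tested. Their RNA was measured in 12 poly(A)-selected libraries of HCT116 and HCT15, both established human colorectal carcinoma lines. Each line was present as control (HCT116_con, HCT15_con) and with overexpression of RNF26 (HCT116_ov_RNF26, HCT15_ov_RNF26), with 3 libraries in each of the 4 groups. RNF26 is a ubiquitin ligase of the endoplasmic reticulum membrane, and the comparisons ask whether RNA levels differ with RNF26 in each line. The sources used here do not give how RNF26 was introduced, what the control cells carried, or whether the cells were clones or pools. Nothing in the labels ties replicates to separate cultures, so p-values measure a spread between libraries that may be technical.

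A snoRNA host gene is transcribed and spliced, and its snoRNAs are cut out of the removed introns. Box C/D snoRNAs pair with ribosomal RNA and direct methylation of the ribose, and box H/ACA snoRNAs direct the change of uridine to pseudouridine; both classes work in the nucleolus with a fixed set of core proteins. Many hosts start with a run of pyrimidines (5′ terminal oligopyrimidine, or TOP), a feature that they share with mRNAs of ribosomal proteins. The spliced host RNA holds short reading frames, and for several hosts, GAS5 among them, it is degraded by nonsense-mediated decay (NMD) as it is translated. Poly(A) selection reads this spliced RNA and not the snoRNAs, which have no poly(A) tail.

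The RefSeq annotation places 37 snoRNAs within the spans of the 10 hosts, 28 of box C/D in 7 hosts, 8 of box H/ACA in 5 hosts and 1 with no class in its name. All 37 lie in an intron of at least 1 GENCODE 29 transcript of their host. Only named snoRNAs of box C/D are held by 5 hosts: ZFAS1 (3), SNHG1 (8, and the one with no class), SNHG5 (2), SNHG6 (1) and SNHG29 (3). Hosts of box H/ACA alone are SNHG7 (2), SNHG8 (1) and EPB41L4A-AS1 (1). Both classes are found in GAS5, with 10 of box C/D and 1 of box H/ACA, and in SNHG12, with 1 and 3. The box H/ACA snoRNA of GAS5, SNORA103, lies in an intron of only 1 of the 23 host transcripts that span it. The placing of GAS5 among hosts of both classes rests on it. The sequences below show examples of both classes from the introns of 7 hosts: ZFAS1, SNHG1, SNHG5, SNHG29, SNHG8 and EPB41L4A-AS1, called with RNF26 in HCT15, and SNHG7, which was not called. Capitals mark TGATGA within the first 20 bases and CTGA within the last 20 in box C/D snoRNAs, the letters of boxes C and D, and ACA 3 bases from the end in box H/ACA snoRNAs. They come from the GENCODE 29 transcripts on GRCh38.
SNORD12C of ZFAS1, chr20:49278940-49279028, plus strand: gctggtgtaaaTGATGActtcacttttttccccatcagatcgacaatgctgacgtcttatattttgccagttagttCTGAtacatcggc
SNORD12B of ZFAS1, chr20:49280319-49280409, plus strand: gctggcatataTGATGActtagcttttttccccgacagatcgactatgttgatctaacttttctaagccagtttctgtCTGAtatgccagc
SNORD12 of ZFAS1, chr20:49280683-49280772, plus strand: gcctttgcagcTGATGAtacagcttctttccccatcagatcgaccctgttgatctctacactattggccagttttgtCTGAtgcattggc
SNORD27 of SNHG1, chr11:62855012-62855083, minus strand: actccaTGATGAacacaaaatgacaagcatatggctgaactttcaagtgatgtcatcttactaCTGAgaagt
SNORD50B of SNHG5, chr6:85677589-85677658, minus strand: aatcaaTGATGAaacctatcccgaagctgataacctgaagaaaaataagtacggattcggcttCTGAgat
SNORD49B of SNHG29, chr17:16439505-16439576, plus strand: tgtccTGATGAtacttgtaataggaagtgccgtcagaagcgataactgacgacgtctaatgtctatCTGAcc
SNORD49A of SNHG29, chr17:16440036-16440106, plus strand: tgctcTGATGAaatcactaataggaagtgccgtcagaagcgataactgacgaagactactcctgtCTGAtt
SNORA24 of SNHG8, chr4:118279190-118279320, plus strand: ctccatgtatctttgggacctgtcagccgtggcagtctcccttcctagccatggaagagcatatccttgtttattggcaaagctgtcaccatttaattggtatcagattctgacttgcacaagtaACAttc
SNORA13 of EPB41L4A-AS1, chr5:112161485-112161617, plus strand: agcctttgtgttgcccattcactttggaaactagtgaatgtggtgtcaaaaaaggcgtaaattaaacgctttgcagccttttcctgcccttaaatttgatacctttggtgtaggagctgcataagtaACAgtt
SNORA17A of SNHG7, chr9:136726747-136726879, minus strand: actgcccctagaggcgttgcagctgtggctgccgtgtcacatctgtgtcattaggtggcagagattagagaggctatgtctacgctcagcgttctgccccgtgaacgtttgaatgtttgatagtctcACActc
SNORD49B and SNORD49A, neighbours in SNHG29, share a stretch of 35 bases that starts at base 18 of each, counted from the 5′ end. In ZFAS1, SNORD12C and SNORD12 share 18 bases from base 27. Of 23 of these 37 snoRNAs with a row in the table, 7 were above 0 TPM (a level per transcript length, scaled to the same total in every library) in at least 1 library and 0 in at least 3. The snoRNAs themselves were therefore not compared between groups.

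Promoter windows of 300 bases, 250 before and 50 after the RefSeq start, were matched for 9 of the 10 hosts (GRCh38.p14). Printed are 5: the 4 hosts whose RNF26 effect differed between the lines (ZFAS1, SNHG1, SNHG5 and SNHG29), and SNHG12, which was not called in either line and holds the same TATATAA. Capitals mark TATAAA and TATATAA on either strand, and the longest run of C and T that touches the 10 bases on either side of the start.
ZFAS1 promoter window, chr20:49278392-49278691, plus strand: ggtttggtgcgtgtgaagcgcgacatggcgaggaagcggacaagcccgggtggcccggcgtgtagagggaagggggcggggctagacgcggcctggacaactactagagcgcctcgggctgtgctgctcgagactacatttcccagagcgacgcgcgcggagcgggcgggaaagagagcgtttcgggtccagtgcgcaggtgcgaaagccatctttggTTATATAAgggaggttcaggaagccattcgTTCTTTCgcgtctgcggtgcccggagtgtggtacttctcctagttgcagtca
SNHG1 promoter window, chr11:62855836-62856135, minus strand: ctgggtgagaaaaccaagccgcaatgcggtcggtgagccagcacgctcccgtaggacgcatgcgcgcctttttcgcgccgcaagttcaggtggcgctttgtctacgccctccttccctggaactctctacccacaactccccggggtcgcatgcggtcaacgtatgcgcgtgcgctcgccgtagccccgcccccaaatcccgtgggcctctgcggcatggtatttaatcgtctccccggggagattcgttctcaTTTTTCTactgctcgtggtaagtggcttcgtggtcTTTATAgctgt
SNHG5 promoter window, chr6:85678684-85678983, minus strand: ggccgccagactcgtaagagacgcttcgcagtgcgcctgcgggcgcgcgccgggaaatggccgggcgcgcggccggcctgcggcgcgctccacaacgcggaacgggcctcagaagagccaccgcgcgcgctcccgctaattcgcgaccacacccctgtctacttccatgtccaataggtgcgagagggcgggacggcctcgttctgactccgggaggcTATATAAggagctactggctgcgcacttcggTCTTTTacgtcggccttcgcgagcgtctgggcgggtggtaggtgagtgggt
SNHG29 promoter window, chr17:16438737-16439036, plus strand: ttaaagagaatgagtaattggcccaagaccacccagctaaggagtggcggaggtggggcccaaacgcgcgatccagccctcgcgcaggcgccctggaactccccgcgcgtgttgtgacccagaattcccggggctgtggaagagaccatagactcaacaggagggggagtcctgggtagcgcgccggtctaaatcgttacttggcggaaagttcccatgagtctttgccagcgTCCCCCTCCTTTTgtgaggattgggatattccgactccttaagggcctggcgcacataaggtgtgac
SNHG12 promoter window, chr1:28581824-28582123, minus strand: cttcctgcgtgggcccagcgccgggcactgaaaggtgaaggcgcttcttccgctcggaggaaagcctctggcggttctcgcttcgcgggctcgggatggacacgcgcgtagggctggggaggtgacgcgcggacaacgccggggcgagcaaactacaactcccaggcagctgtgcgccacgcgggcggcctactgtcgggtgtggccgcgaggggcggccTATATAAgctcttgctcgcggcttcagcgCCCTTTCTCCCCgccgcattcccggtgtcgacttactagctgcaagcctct
TATATAA on the strand of the gene began 31 bases before the start in ZFAS1, 32 in SNHG5 and 30 in SNHG12, so 3 of 9 windows held it on either strand, against 2.57% of 35116 windows of all genes. TATAAA was found in 2 of 9 windows (11.5% of all), in SNHG7 at 30 bases before the start and in SNHG1 on the other strand after it. TATATAA followed by A also holds TATAAA, and no host window held both. A run of at least 6 C or T touched the start region in 7 of 9 windows, against 31.1% of all windows. One of at least 8 was in 3 of 9 (SNHG7, SNHG12 and SNHG29), against 15.2%. Some of these runs did not hold the start base, counted as 1. The run lay after it in SNHG1 (5 to 11) and wholly before it in SNHG7 (-14 to -4) and SNHG29 (-17 to -5). Of the other letters searched on both strands, GGGCGG was in 6 of 9 windows (45.0% of all), CCAAT in 3 (34.6%) and CACGTG in 1 (7.26%). Each window follows the start of 1 RefSeq transcript, which lay 163 bases from the outermost GENCODE 29 start in GAS5, 464 in ZFAS1, 165 in SNHG29 and 1259 in SNHG12. In ZFAS1 and SNHG12 other RefSeq transcripts start further upstream.

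RNF26 mRNA checked the labels. It averaged 16.8 TPM in HCT116 control and 296 TPM in HCT116 RNF26 libraries, and 26.98 and 54.2 TPM in HCT15. Between 13582 and 14135 genes reached 1 TPM in a library, and the sequencing depth behind the TPM values is unknown. KRT8, an epithelial keratin, was the highest colon marker in both lines (1496 and 1808 TPM), while CDH17 and VIL1 lay under 1 TPM in HCT116 and KRT20 in HCT15. Fibroblast markers summed to 2.80 TPM or less, and CD3E was listed at 0 in both lines. One library stood apart: in HCT15 control replicate 3 mitochondrial RNAs made up 25.9% of TPM and ribosomal protein mRNAs 17.5%, against 17.7% and 16.4%, and 21.7% and 24.2%, in the other controls. The HCT15 RNF26 libraries lay at 18.5% to 19.2% and 26.2% to 27.4%. The RNF26 effects of the hosts in HCT15 are therefore also given without that library.

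The 10 hosts together made up 2244 to 2366 TPM in the 6 HCT116 libraries. In HCT15 the sum was 2062, 2290 and 1602 TPM in control replicates 1 to 3, and 2740, 2967 and 2879 TPM in the RNF26 replicates. All HCT15 RNF26 libraries thus lay above all HCT15 controls and above all HCT116 libraries. In bulk RNA, a lower level per cell and fewer cells that express a gene cannot be told apart.

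**Figure D1:**
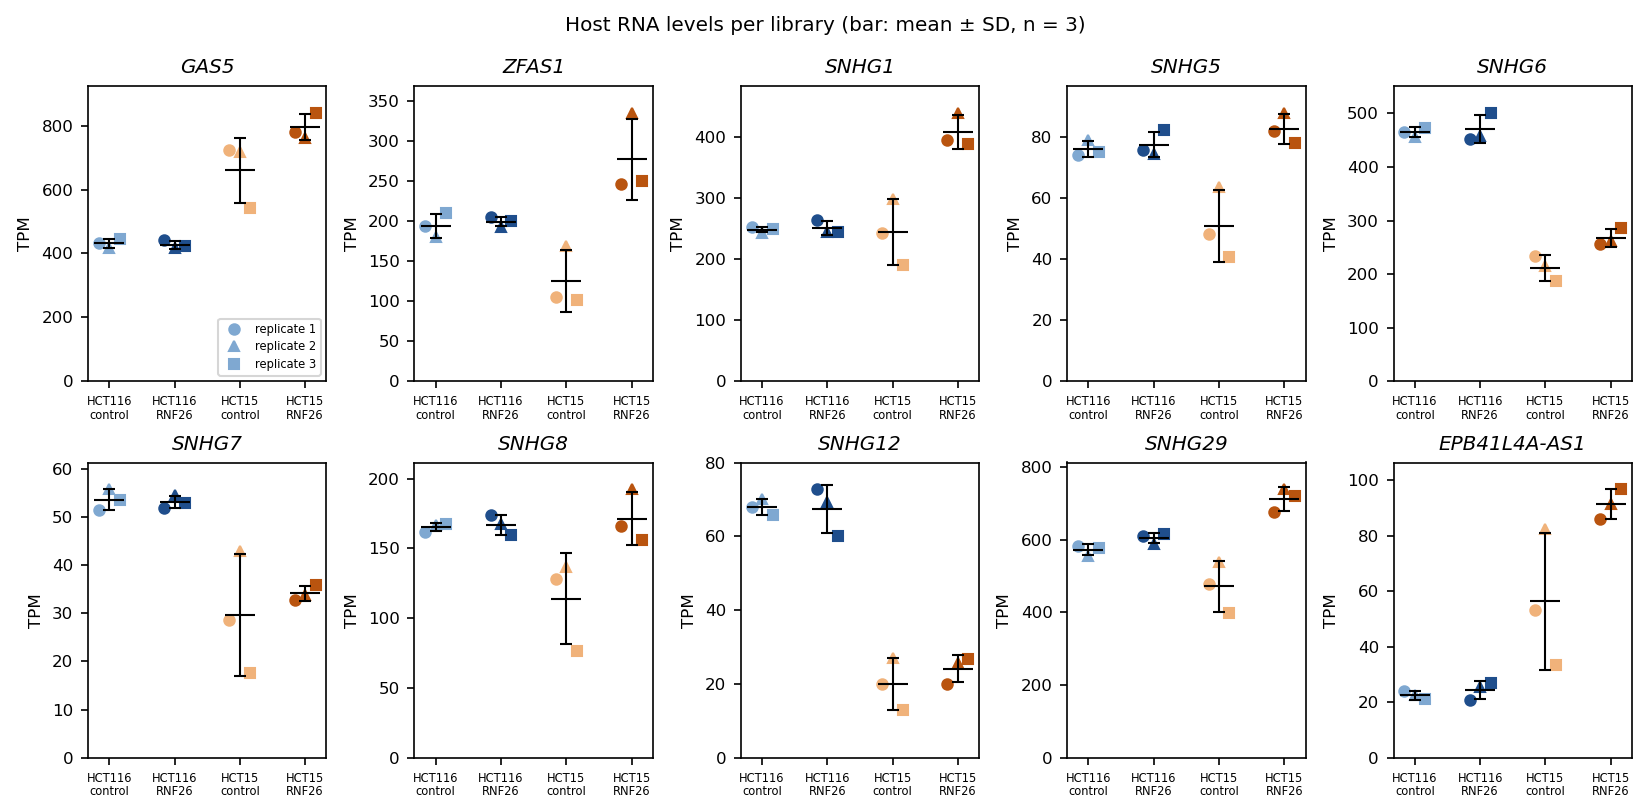
TPM of each host in the 12 libraries, by group, with symbols for replicates and a bar for the mean and SD (n = 3). The HCT116 arms lie side by side, and in HCT15 all RNF26 libraries lie above all controls for 8 of the 10 hosts, SNHG7 and SNHG12 being the exceptions.

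In HCT116 controls SNHG29 was the most abundant host, with 572 ± 15.1 TPM (SD, n = 3), followed by SNHG6, GAS5, SNHG1, ZFAS1, SNHG8, SNHG5, SNHG12, SNHG7 and EPB41L4A-AS1 (22.6 ± 1.59 TPM, SD, n = 3). None of the 9 neighbouring pairs in this order overlapped over the 3 libraries. In HCT15 controls GAS5 came first, with 661 ± 102 TPM (SD, n = 3), followed by SNHG29, SNHG1, SNHG6, ZFAS1, SNHG8, EPB41L4A-AS1, SNHG5, SNHG7 and SNHG12 (20.1 ± 7.13 TPM, SD, n = 3). There 6 of the 9 neighbouring pairs overlapped, the exceptions being GAS5 and SNHG29, SNHG29 and SNHG1, and SNHG6 and ZFAS1. SNHG12 moved from eighth place in HCT116 to last in HCT15, and EPB41L4A-AS1 from last to seventh.

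Between the control lines, 9 of the 10 hosts differed, 2 higher and 7 lower in HCT15 (limma on log2(TPM + 1), Benjamini-Hochberg adjusted p under 0.05). One spread per gene served all 4 groups in this contrast, and no setting run here relaxed that. The median coefficient of variation of the hosts was 25.8% in HCT15 controls and 3.24% in HCT116 controls, so the SE may understate the scatter of HCT15 controls. Of all tested genes 69.5% differed in this comparison, 43.6% higher and 26.0% lower in HCT15, so a call in itself was common. Values of the control lines did not overlap for 9 hosts, against 71.9% of all genes (44.8% higher and 27.1% lower in HCT15). After quantile normalization 35.1% of all genes were called higher and 33.6% lower. The median log2 fold change of the hosts was -0.59, that of all tested genes 0.22. SNHG12, a host of 3 box H/ACA snoRNAs and SNORD99, was the furthest below HCT116. It was 67.9, 70.3 and 65.9 TPM in HCT116 controls and 20.1, 27.2 and 12.9 TPM in HCT15 controls, a log2 fold change of -1.77 (SE 0.205, limma adjusted p = 1.27e-05). No HCT15 control reached the lowest HCT116 control. Among the hosts lower in HCT15, SNHG6, which carries SNORD87, followed with -1.13 (SE 0.0830, adjusted p = 2.75e-07), and SNHG7 with -0.92 (SE 0.222, adjusted p = 0.00321). ZFAS1 (-0.67), SNHG5 (-0.59), SNHG8 (-0.58) and SNHG29 (-0.29) were lower by smaller amounts. Without HCT15 control replicate 3, SNHG7 was at -0.60, SNHG8 at -0.32 and SNHG29 at -0.17, all called. EPB41L4A-AS1, read from the EPB41L4A locus and host of SNORA13, was 24.2, 22.5 and 21.1 TPM in HCT116 controls and 53.1, 82.5 and 33.3 TPM in HCT15 controls, without overlap. Its log2 fold change was 1.19 (SE 0.241, limma adjusted p = 9.65e-04), and that of GAS5 was 0.60 (SE 0.0981, adjusted p = 1.98e-04). SNHG1 was the host that was not called, at -0.05 (95% interval -0.32 to 0.23, adjusted p = 0.757). It was at 0.03 after quantile normalization and 0.12 without HCT15 control replicate 3, so its direction was not settled.

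**Figure D2:**
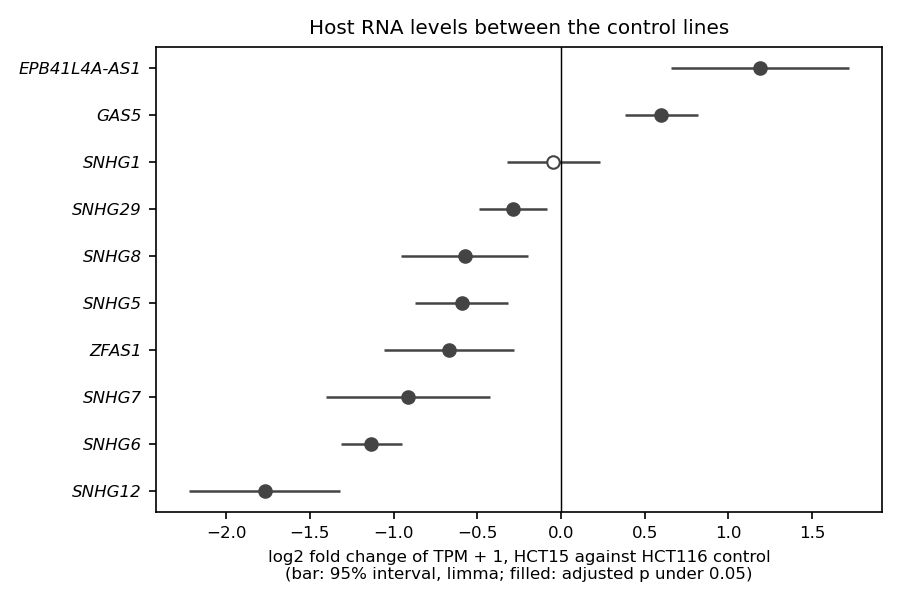
Log2 fold change of each host between HCT15 and HCT116 controls with its 95% interval; filled points passed an adjusted p of 0.05. EPB41L4A-AS1 and GAS5 lie to the right of 0, SNHG1 at 0 and 7 hosts to the left, down to -1.77 for SNHG12.

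In HCT116 no host differed between RNF26 and control libraries. Limma called 0 of the 10 at an adjusted p of 0.05, and 0 had an unadjusted p under 0.05, the smallest being 0.407 for SNHG29. Over all genes 0.00642% were called, which is RNF26 alone, and 657 of 15584 had an unadjusted p under 0.05. SNHG29, which hosts SNORD49A, SNORD49B and SNORD65, had 584, 555 and 577 TPM in its controls and 609, 588 and 615 TPM with RNF26. It was the 1 host whose arms did not overlap, against 12.8% of all genes (7.25% higher and 5.56% lower with RNF26). Its log2 fold change was 0.08 (95% interval -0.12 to 0.28). The mean was higher with RNF26 for 7 of the 10 hosts, against 52.4% of all genes. The largest value of the 10 was that of EPB41L4A-AS1, 0.10 (95% interval -0.43 to 0.63). GAS5 had 434, 418 and 445 TPM in its controls and 441, 416 and 423 TPM with RNF26, at -0.02 (95% interval -0.23 to 0.20). Intervals of all 10 hosts included 0, and the interval was widest in EPB41L4A-AS1. One spread per gene served all 4 groups, so each host had the same SE here as in HCT15, whose controls varied most. These p-values and intervals thus do not measure the scatter of HCT116 libraries alone. When HCT116 was fitted separately, 0 of the 10 hosts were called.

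In HCT15, 8 of the 10 hosts were higher in RNF26 than in control libraries and 0 were lower (limma, adjusted p under 0.05). These hosts were chosen with earlier results of these data known, so the shares of all genes set beside them are a description. Among 17 other noncoding snoRNA hosts tested, 2 were higher and 1 lower, with a median log2 fold change of -0.02. With median-ratio scaling their median was 0.18 (all genes 0), and after quantile normalization 0.22 (all genes -0.0022). In each of these 3 were higher and 1 lower. Of all tested genes 5.39% were called higher and 31.2% lower, 36.6% in all. These shares depended on the scaling: 14.4% were higher and 16.7% lower with median-ratio scaling, and 14.6% and 16.2% after quantile normalization. The median log2 fold change of the hosts was 0.61 and that of all tested genes -0.17. All 10 host means were higher with RNF26, against 30.6% of all tested genes with a log2 fold change above 0. For 8 hosts every RNF26 library lay above every control, against 7.23% of all genes in this direction, 35.9% in the other and 43.1% in either; a two-sided exact permutation test then gave p = 0.1, the smallest that 3 against 3 allows. Under both of those scalings 8 hosts were higher and 0 lower. Without control replicate 3, 6 of the 10 hosts were called and their median was 0.41. Without control replicate 2, all 10 were called. Without RNF26 replicate 2, 5 were called. Fitted separately, HCT15 had 4 calls: ZFAS1, SNHG1, SNHG5 and SNHG29.

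**Figure D3:**
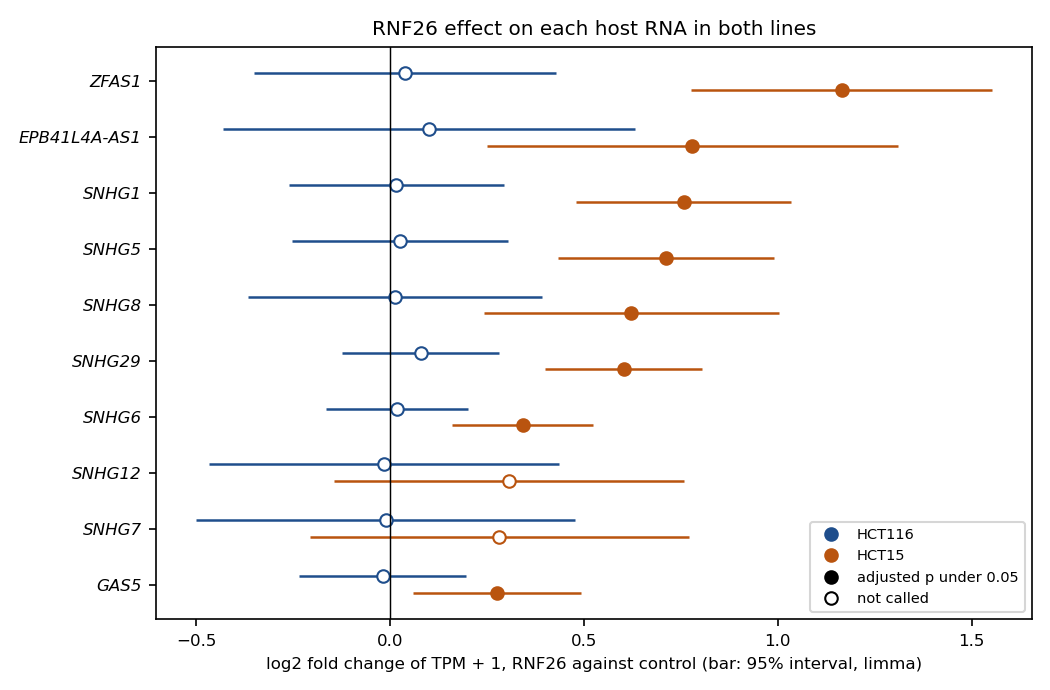
Log2 fold change of each host, RNF26 against control, in HCT116 (blue) and HCT15 (orange), with 95% intervals from limma; filled points passed an adjusted p of 0.05. No HCT116 point is filled, and 8 of 10 HCT15 points are, from 0.28 for GAS5 to 1.16 for ZFAS1.

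All 5 hosts of box C/D snoRNAs alone were called higher in HCT15, with log2 fold changes from 0.34 to 1.16. ZFAS1 (ENSG00000177410, chromosome 20, 49278178 to 49295738, plus strand), named for its place antisense to the 5′ end of ZNFX1, rose most. It had 105, 170 and 102 TPM in its controls and 246, 335 and 250 TPM with RNF26, a ratio of means of 2.21. The highest control lay below the lowest RNF26 library, and the highest library of each arm was replicate 2. Its log2 fold change was 1.16 (SE 0.177, limma adjusted p = 5.55e-04), the 91st highest of 15584 genes, and without control replicate 3 it was 1.04 (adjusted p = 0.00213). ZFAS1 was called in each of 25 settings run. The 3 snoRNAs of the SNORD12 family printed above lie in its introns.

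SNHG1 (ENSG00000255717, chromosome 11, 62851988 to 62855914, minus strand) hosts the SNORD25 to SNORD31 series and SNORD22. It had 243, 298 and 191 TPM in its controls and 394, 439 and 388 TPM with RNF26, and the arms did not overlap. Its log2 fold change was 0.76 (SE 0.126, limma adjusted p = 9.48e-04), and 0.59 without control replicate 3. SNHG5 (ENSG00000203875, chromosome 6, 85660950 to 85678748, minus strand), host of SNORD50A and SNORD50B, had 48.0, 63.6 and 40.7 TPM in its controls and 81.9, 87.7 and 77.9 TPM with RNF26. These arms were also apart, with a log2 fold change of 0.71 (SE 0.127, limma adjusted p = 0.00140), or 0.57 without control replicate 3. In HCT15 RNF26 libraries SNHG5 came to 82.5 ± 4.98 TPM (SD, n = 3), beside 75.9 ± 2.60 TPM in HCT116 controls (SD, n = 3).

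SNHG29 (ENSG00000175061, chromosome 17, 16438822 to 16478678, plus strand), listed in GENCODE 29 as LRRC75A-AS1, had 479, 538 and 399 TPM in HCT15 controls and 676, 738 and 720 TPM with RNF26. Its arms did not overlap, and the log2 fold change was 0.60 (SE 0.0921, limma adjusted p = 5.82e-04), or 0.49 without control replicate 3. ZFAS1, SNHG1, SNHG5 and SNHG29 were the 4 hosts called in each of the 25 settings. The fifth, SNHG6 (ENSG00000245910, minus strand), had 234, 215 and 187 TPM in its controls and 256, 261 and 287 TPM with RNF26. Its arms were apart by a smaller margin, with a log2 fold change of 0.34 (SE 0.0830, limma adjusted p = 0.00809), or 0.25 without control replicate 3 (adjusted p = 0.0162). The call of SNHG6 ended when GC content and length of the transcripts were adjusted for (0.26, adjusted p = 0.0613) and when HCT15 was fitted separately (adjusted p = 0.0578).

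Among the 3 hosts of box H/ACA snoRNAs alone, 2 were called higher. SNHG8 (ENSG00000269893, chromosome 4, 118278709 to 118279823, plus strand), host of SNORA24, had 128, 137 and 76.8 TPM in its controls and 166, 192 and 156 TPM with RNF26. The lowest RNF26 library lay above the highest control, and the log2 fold change was 0.62 (SE 0.173, limma adjusted p = 0.0156) or, without control replicate 3, 0.36 (adjusted p = 0.00722). Its call ended without RNF26 replicate 2 (0.54, adjusted p = 0.0570) and when HCT15 was fitted separately (adjusted p = 0.113). EPB41L4A-AS1 (ENSG00000224032, chromosome 5, 112160526 to 112164276, plus strand) had 53.1, 82.5 and 33.3 TPM in its controls and 86.1, 91.3 and 96.7 TPM with RNF26. Control replicate 2 came close to the RNF26 libraries and replicate 3 lay far under them. The log2 fold change was 0.78 (SE 0.241, limma adjusted p = 0.0262), and without control replicate 3 it was 0.46 and no longer called (adjusted p = 0.0581). The call of EPB41L4A-AS1 also ended without control replicate 1 or any 1 RNF26 library (adjusted p = 0.0535 to 0.0728), and it was made in 18 of 25 settings. SNHG7 (ENSG00000233016, chromosome 9, 136721366 to 136728184, minus strand), which holds SNORA17A and SNORA17B, had 28.6, 42.9 and 17.6 TPM in its controls and 32.8, 33.7 and 35.9 TPM with RNF26. All RNF26 libraries lay within the range of the controls, and the log2 fold change of 0.28 was not called (95% interval -0.21 to 0.77, adjusted p = 0.363). Without control replicate 3 it was -0.04, without control replicate 2 it was 0.58 (adjusted p = 0.0114), and with GC and length adjusted for 0.67 (adjusted p = 0.0402).

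Of the 2 hosts of both classes, GAS5 was called and SNHG12 was not. GAS5 (ENSG00000234741, chromosome 1, 173863900 to 173868882, minus strand), the growth arrest specific host of 11 snoRNAs, had 723, 717 and 544 TPM in its controls and 781, 763 and 840 TPM with RNF26. Control replicates 1 and 2 lay close under the RNF26 libraries and replicate 3 well below. Its log2 fold change was 0.28 (SE 0.0981, limma adjusted p = 0.0468), near the threshold, and 0.14 without control replicate 3 (adjusted p = 0.0739). It was called in 10 of 25 settings, with adjusted p from 0.00403 to 0.180. SNHG12 (ENSG00000197989, chromosome 1, 28578538 to 28583132, minus strand) had 20.1, 27.2 and 12.9 TPM in its controls and 19.95, 25.8 and 26.8 TPM with RNF26. Its arms overlapped, and the log2 fold change was 0.31 (95% interval -0.14 to 0.76, adjusted p = 0.278), or 0.04 without control replicate 3 and 0.55 without control replicate 2 (adjusted p = 0.0270). Whether the 3 kinds of host differ in their change was not tested.

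The RNF26 effect was larger in HCT15 than in HCT116 for 4 of the 10 hosts, by the interaction contrast of the same fit (limma, adjusted p under 0.05). Of all tested genes 1.80% were called in this direction, 18.7% in the other and 20.5% in either. With median-ratio scaling it was 5.99% in this direction and 7.35% in the other, and 7 hosts were called; with quantile normalization it was 5.49% and 6.90%, and 5 hosts. The difference of the log2 fold changes, HCT15 minus HCT116, was 1.13 for ZFAS1 (SE 0.250, limma adjusted p = 0.0113). It was 0.74 for SNHG1 (SE 0.179, adjusted p = 0.0159), 0.68 for SNHG5 (SE 0.179, adjusted p = 0.0219) and 0.52 for SNHG29 (SE 0.130, adjusted p = 0.0181). All 4 differences were still called without HCT15 control replicate 3, at 1.00, 0.58, 0.54 and 0.41 in the same order. The SNHG5 difference was not called when no low values were removed (adjusted p = 0.0586), without HCT116 RNF26 replicate 1 (0.0516) or 2 (0.0558), and without HCT15 control replicate 1 (0.0506). For SNHG6 (0.32, 95% interval 0.07 to 0.58, adjusted p = 0.0745) and SNHG8 (0.61, 95% interval 0.07 to 1.15, adjusted p = 0.102) the difference did not pass over all genes. It passed for SNHG6 under median-ratio scaling (adjusted p = 0.0215), after quantile normalization (0.0332) and without mitochondrial and ribosomal protein genes (0.0254), and for SNHG8 (0.0373) and GAS5 (0.0356) with median-ratio scaling. Without HCT15 control replicate 1 SNHG6 passed (0.0382), without control replicate 2 SNHG8 (0.0324) and EPB41L4A-AS1 (0.0111), and without control replicate 3 SNHG8 (0.0498). Without mitochondrial and ribosomal protein genes GAS5 passed as well (0.0489). EPB41L4A-AS1 (0.68), GAS5 (0.30), SNHG12 (0.32) and SNHG7 (0.29) had intervals that included 0. An RNF26 level that rose less in HCT15 than in HCT116, given above, went with the larger change of these hosts; its part was not tested.

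The HCT15 controls were the group in which the hosts varied most. Every host was lowest in control replicate 3, and 8 of 10 were highest in replicate 2, the exceptions being GAS5 and SNHG6 with replicate 1. The coefficient of variation over the 3 libraries had a median over hosts of 25.8% in HCT15 controls, from 11.3% for SNHG6 to 44.0% for EPB41L4A-AS1. In the other groups the median was 3.24% to 6.08%. Over all tested genes with a group mean of 10 TPM or more, the median was 10.3% in HCT15 controls and 5.06% to 7.91% in the others. A single residual spread per gene served all 4 groups; with HCT15 fitted separately the adjusted p of ZFAS1 was 0.0223. The ribosomal protein share of TPM was lowest and the mitochondrial share highest in the same replicate 3; their part in the result was not tested.

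**Figure D4:**
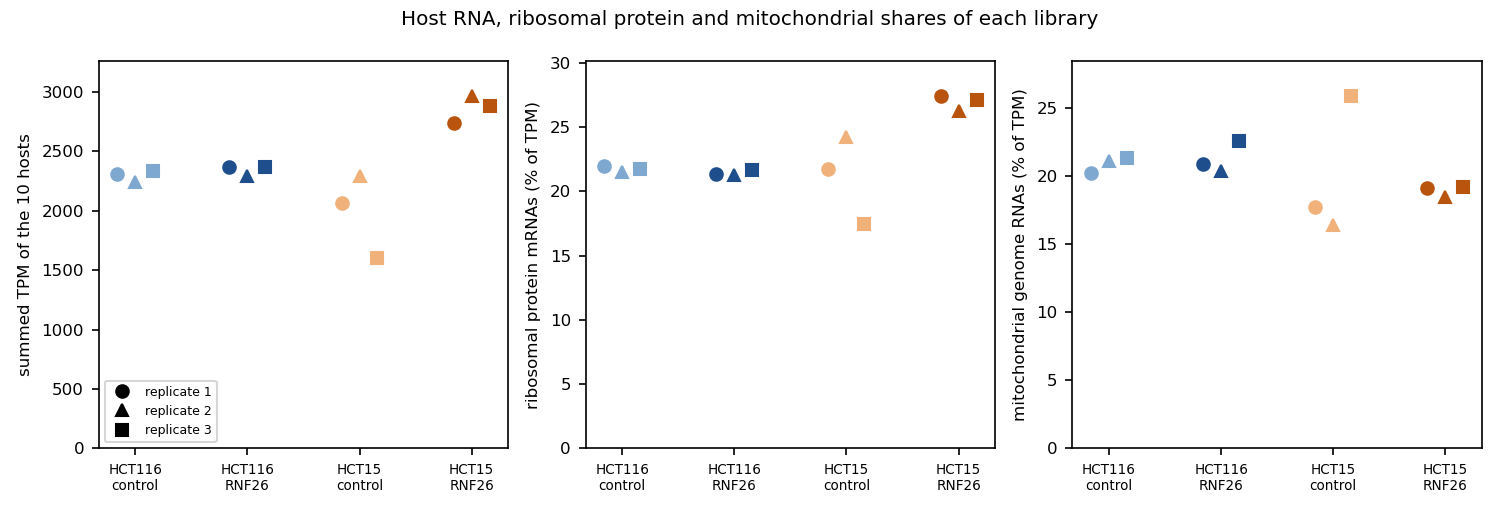
Summed TPM of the 10 hosts, share of TPM from ribosomal protein mRNAs and share from mitochondrial RNAs, in each library by group, with symbols for replicates. HCT15 control replicate 3 is lowest in the first 2 panels (1602 TPM and 17.5%) and highest in the third (25.9%), and the HCT15 RNF26 libraries are highest in the first 2.

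The hosts moved together over the libraries. Pearson's r between a host and the mean of the other 9, on log2(TPM + 1) centred within each line over the 12 libraries, ran from 0.795 for SNHG7 to 0.970 for SNHG1. The mean of the ribosomal protein genes had an r of 0.977 with the mean of the hosts. Among 9334 genes with a mean of 5 TPM or more, the 6 most like the mean of the hosts were RPL34 (0.985), COX7C (0.985), TMA7 (0.984), RPS27A (0.982), TMEM14B (0.982) and RPL39 (0.981). RPL34, RPS27A and RPL39 encode ribosomal proteins, COX7C a subunit of cytochrome c oxidase, and TMA7 a protein associated with translation. RPL34 averaged 605 ± 250 TPM in HCT15 control and 1094 ± 30.4 TPM in RNF26 libraries (SD, n = 3 each), a log2 fold change of 0.93 (limma adjusted p = 0.00595). These correlations are a description: all points share their libraries and the fixed total of TPM. Values were centred by line and not by group, so the difference between the HCT15 arms enters each r. The mean log2(TPM + 1) of the hosts ran from 7.23 to 7.28 over HCT116 libraries and from 6.43 to 7.48 over HCT15 libraries. The r therefore rests mostly on HCT15, where control replicate 3 was the lowest.

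Ribosomal protein mRNAs, the classic TOP mRNAs, were called higher in HCT15 for 28 of 46 genes of the large and 18 of 31 of the small subunit, with 0 lower in either. Their median log2 fold changes were 0.41 and 0.36, against 0.61 for the hosts and -0.17 for all genes. RPL35A rose from 1030 ± 257 to 1943 ± 161 TPM (SD, n = 3 each; log2 0.94, limma adjusted p = 4.79e-04) and RPS23 from 4501 ± 206 to 6435 ± 319 TPM (SD, n = 3 each; 0.52, adjusted p = 3.92e-04). With median-ratio scaling 40 large and 25 small subunit genes were higher and 0 lower. When GC and length were adjusted for, 42 and 23 were higher and 0 lower. After quantile normalization 16 and 7 of them were higher, with 1 and 2 lower. Without HCT15 control replicate 3, 21 and 16 were higher and 0 and 1 lower, with medians of 0.28 and 0.21. Of 18 translation factors with TOP mRNAs, 6 were higher and 3 lower, beside 5.39% and 31.2% of all genes. These counts depended on the scaling. They were 10 and 1 with median-ratio scaling, 9 and 1 with GC and length adjusted for, and 5 and 5 after quantile normalization. Without mitochondrial and ribosomal protein genes they were 8 and 1. TPT1, a translationally controlled tumour protein, was among the higher (0.45, adjusted p = 0.00241), and EEF2, the elongation factor that moves the ribosome along (-0.42, adjusted p = 0.00345), and PABPC1, the poly(A) binding protein (-0.34, adjusted p = 0.00715), among the lower. EEF2 was not called with GC and length adjusted for (adjusted p = 0.0919), nor PABPC1 with median-ratio scaling (adjusted p = 0.266) or without the mitochondrial and ribosomal protein genes (adjusted p = 0.0632).

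Of 24 further noncoding snoRNA hosts 17 were tested in HCT15, 2 higher and 1 lower (4 lower without control replicate 3), with a median log2 fold change of -0.02. That median was 0.18 with median-ratio scaling, 0.22 after quantile normalization and 0.13 with GC and length adjusted for. SNHG32 went from 96.3 ± 11.6 to 129 ± 12.7 TPM (SD, n = 3 each; log2 0.42, limma adjusted p = 0.00785) and SNHG19 from 18.3 ± 7.20 to 33.0 ± 2.87 TPM (0.89, adjusted p = 0.0113; 0.53 without control replicate 3). SNHG20 went from 7.84 ± 0.306 to 4.69 ± 1.40 TPM (SD, n = 3 each; -0.66, adjusted p = 0.00839). SNHG16 (75.0 and 75.4 TPM) and DANCR (47.6 and 42.4 TPM), both abundant hosts, were not called. Of 39 protein-coding snoRNA hosts, 14 were higher and 6 lower, with a median of 0.14. RPL21 (0.55, adjusted p = 7.11e-04) and RPL17 (0.53, adjusted p = 0.00122) encode ribosomal proteins and were higher. PPAN, a ribosome biogenesis factor, was lower (-0.66, adjusted p = 7.75e-04), a call lost with GC and length adjusted for (adjusted p = 0.105). The counts of the coding hosts depended on the scaling, 25 higher and 2 lower with median-ratio scaling and 8 and 6 after quantile normalization. A difference between these lists and the 10 hosts was not tested.

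**Figure D5:**
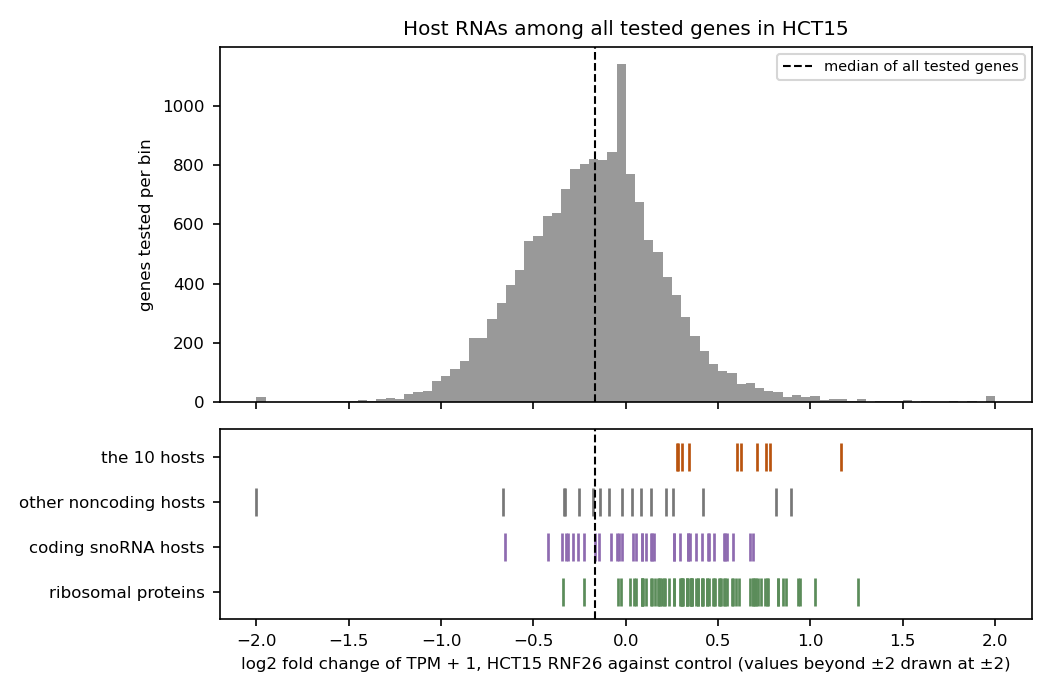
Distribution of the HCT15 log2 fold changes of all 15584 tested genes (top) and the values of the 10 hosts, the other noncoding hosts, the coding snoRNA hosts and the ribosomal proteins (bottom, 1 tick per gene). The median of all genes, -0.17, is dashed; the ticks of the hosts lie between 0.28 and 1.16.

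Of 8 core proteins of snoRNA particles 3 were called lower in HCT15 and 0 higher, near the share of all genes called lower, 31.2%. They were NOP56 of box C/D particles (log2 fold change -0.32, limma adjusted p = 0.00274), and NHP2 (-0.40, adjusted p = 0.00498) and the pseudouridine synthase DKC1 (-0.17, adjusted p = 0.0281) of box H/ACA particles. With median-ratio scaling these 3 were at -0.10, -0.18 and 0.05 and not called (adjusted p = 0.154, 0.173 and 0.540), and 2 of the 8 core proteins were then higher. DKC1 was also not called without HCT15 control replicate 3 (adjusted p = 0.0621). Of 12 assembly factors 7 were lower and 0 higher, among them the ATPases RUVBL1 (-0.74, adjusted p = 4.52e-05) and RUVBL2 (-0.83, adjusted p = 4.33e-05), their partner PIH1D1 (-0.52, adjusted p = 3.94e-04) and the nucleolar protein TCOF1 (-0.88, adjusted p = 1.07e-04). These 4 were also called under median-ratio scaling, quantile normalization, adjustment for GC and length, and without mitochondrial and ribosomal protein genes. With GC and length adjusted for, their values were smaller: -0.54 for RUVBL1, -0.43 for RUVBL2, -0.22 for PIH1D1 and -0.40 for TCOF1. In HCT116 limma called 0 genes of any of these lists.

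Of 16 NMD factors 10 were lower in HCT15 and 1 higher, with a median of -0.33, beside 31.2% of all genes lower and a median of -0.17. UPF1, the helicase at the centre of NMD, went from 15.6 ± 1.29 to 7.81 ± 0.707 TPM (SD, n = 3 each; log2 -0.91, limma adjusted p = 4.20e-04), and CASC3, of the exon junction complex, from 30.8 ± 3.30 to 20.1 ± 1.95 TPM (-0.59, adjusted p = 9.95e-04). SMG9 (-0.55, adjusted p = 0.00107) and SMG5 (-0.60, adjusted p = 0.00310) were also lower; SMG9 was not called with GC and length adjusted for (adjusted p = 0.103). With median-ratio scaling 5 NMD factors were lower and 2 higher. A list of 13 genes was taken as regulators of TOP mRNAs, and their action on such mRNAs was not tested. Of these, 5 were lower and 0 higher, a share near that of all genes. They included MTOR, the kinase that governs TOP translation (-0.74, adjusted p = 1.31e-04), its partner RPTOR (-0.74, adjusted p = 0.00174), LARP4B (-0.49, adjusted p = 2.23e-04) and the S6 kinase RPS6KB2 (-0.47, adjusted p = 4.87e-04), not called with GC and length adjusted for (adjusted p = 0.405). No relation between these levels and those of the hosts was tested.

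Among 12 tested long noncoding RNAs that host no snoRNA, 3 were higher and 0 lower in HCT15. MALAT1, a nuclear retained RNA, went from 1087 ± 282 to 1994 ± 189 TPM (SD, n = 3 each; log2 0.90, limma adjusted p = 0.00165). Of 9 immediate early genes, transcribed within minutes of a stimulus, 8 were lower (5 with GC and length adjusted for). Colon epithelial markers summed to 4245 to 4863 TPM in HCT15 control and 3885 to 4070 TPM in RNF26 libraries. Lower were 3 of 8 (2 lower and 1 higher with median-ratio scaling), near the 31.2% of all genes called lower. The leukocyte marker CD14 averaged 6.95 and 4.74 TPM, and the 5 leukocyte markers summed to 6.80 to 7.39 and 4.14 to 5.20 TPM, with CD3E and MS4A1 at 0. The part of these levels in the change of the hosts was not tested.

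Of the genes that overlap a host or lie within 5 kb of one, and averaged 1 TPM or more, none was called higher with RNF26 in HCT15. These genes were few, and 5.39% of all tested genes were called higher and 31.2% lower. Their values under other scalings are not given, and a difference between hosts and neighbours was not tested. ZNFX1, a helicase gene that overlaps ZFAS1 on the opposite strand, was 7.60 ± 0.495 TPM in HCT15 control and 5.43 ± 0.619 TPM in RNF26 libraries (SD, n = 3 each; log2 -0.42, limma adjusted p = 0.00666). SLC3A2, which starts 188 bases from SNHG1 on the opposite strand and encodes the heavy chain of amino acid transporters, went from 295 ± 56.9 to 229 ± 9.39 TPM (SD, n = 3 each; -0.35, adjusted p = 0.0471). LRRC75A, which overlaps SNHG29, went from 10.4 ± 0.446 to 7.12 ± 1.29 TPM (SD, n = 3 each; -0.50, adjusted p = 0.0120). ZBTB37, which overlaps the span of GAS5 on the opposite strand but not its exons, was not called (-0.01). TRNAU1AP and DIPK1B, whose exons overlap those of SNHG12 and SNHG7 on the opposite strand, were not called (-0.06 and -0.03). PRSS12, 215 bases from SNHG8, was not called either (-0.21). DIPK1B and PRSS12 lay under 1 TPM in HCT15. RF02216, a short RNA annotated within ZFAS1 on the same strand, was listed at 0 in all 6 HCT15 libraries. The sources used here do not state whether the quantification used the strand, so reads of the overlapping pairs cannot be told apart with certainty.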

How the data were processed

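The authors deposited 1 table of TPM, with 1 column for each of 12 libraries, each summing to 999999 to 1000001. Per the labels' protocols, TRIzol RNA was selected with oligo(dT), made into stranded libraries with inserts near 300 bases and sequenced in pairs. The tools were fastp, HISAT2, StringTie and RSEM on GRCh38, per the submitters' processing notes; the sources used here give no versions, roles or annotation release. Depth per library is unknown, so no counting interval is given. No pair of libraries held identical values.

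Symbols came from GENCODE 29, which with RefSeq (GRCh38.p14) gave positions and sequences; 261 of 263 listed symbols matched. The members and gene lists were chosen with earlier results of these data known, so they are descriptions. R 4.3.3 with limma 3.58.1 fitted log2(TPM + 1) of the 15584 genes with 1 TPM or more in at least 3 libraries, in 1 fit of the 4 group means (eBayes with a mean-variance trend, 8 residual and 3.09 prior degrees of freedom). Tests were two-sided, with Benjamini-Hochberg adjustment over all tested genes and calls at 0.05; intervals are 95%. Fold changes on this scale understate changes of low genes. The fit was tested on simulated data with 1 normal spread per gene for all 4 groups. That test could not show what unequal spreads of the groups do to the p-values. Single values were compared by exact permutation of 3 against 3 (scipy 1.17.1). Named genes were the 10 hosts, up to 4 tested genes of a list with the smallest p in HCT15, the 6 genes most like the hosts, and genes that overlap a host or lie within 5 kb and average 1 TPM or more; SNHG16, DANCR and the marker genes were named after their values were seen.

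The alternatives were pseudocounts of 0.1 and 5, no filter or one of 5 TPM, median-ratio scaling over 7524 genes, quantile normalization, removal of 114 mitochondrial and ribosomal protein genes, correction for GC content and transcript length (95.3% of genes), eBayes without trend or robust, a replicate block, a fit per line, and each library left out.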

Additional observations from a re-analysis of the deposited data

Results flagged for a closer look

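The RNF26 effect of 4 hosts differed between the cell lines by the interaction contrast of limma, HCT15 minus HCT116 on the log2 scale. ZFAS1, antisense to ZNFX1, differed by 1.13 (adjusted p = 0.0113): its HCT15 mean went from 125 to 277 TPM, its HCT116 mean from 194 to 199 TPM. SNHG1 differed by 0.74 (adjusted p = 0.0159), with means of 244 and 407 TPM in HCT15 and 248 and 251 TPM in HCT116. For SNHG5 the difference was 0.68 (adjusted p = 0.0219), with 50.8 and 82.5 TPM in HCT15 and 75.9 and 77.4 TPM in HCT116. SNHG29 differed by 0.52 (adjusted p = 0.0181), with 472 and 712 TPM in HCT15 and 572 and 604 TPM in HCT116. In each case all 3 HCT15 RNF26 libraries lay above all 3 HCT15 controls.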

How the results depend on the processing

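Host calls in HCT15, 8 of 10, were 4 in a fit of that line alone and 5 to 10 with each library left out, lowest without HCT15 RNF26 replicate 2. Those of the difference between lines, 4, were 7 with median-ratio scaling and 3 to 6 with each library left out. ZFAS1, SNHG1 and SNHG29 were called for the difference in each of 24 settings. Over all genes, HCT116 calls, 1, were 11 with no filter on low values, 2 without mitochondrial and ribosomal protein genes, 3 in a fit of that line alone and 1 to 3 with each library left out. Calls of the difference, 3190, were 2080 with median-ratio scaling, 1932 after quantile normalization, 1642 when GC and length were adjusted for and 1941 to 3857 with each library left out. The HCT15 split of 840 higher and 4857 lower genes became 2242 and 2600 with median-ratio scaling, 2275 and 2521 with quantile normalization, 1425 and 3437 without mitochondrial and ribosomal protein genes and 1767 and 2406 when GC and length were adjusted for. The median of all genes moved from -0.17 to 0, -0.0022, -0.0666 and -0.0121, and that of the hosts from 0.61 to 0.83, 0.71, 0.73 and 0.70. The cause of these shifts was not tested.

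Among the hosts, directions reversed for uncalled values alone; among the listed genes named, that of DKC1 in HCT15, called at -0.17, was 0.05 with median-ratio scaling. With GC and length adjusted for, SNHG6 was at -0.021, SNHG7 at 0.006 and SNHG8 at -0.031 in HCT116. With 1 library left out in turn, HCT116 values ran from -0.044 to 0.002 (GAS5), -0.016 to 0.095 (ZFAS1), -0.021 to 0.036 (SNHG1), -0.017 to 0.054 (SNHG5), -0.028 to 0.045 (SNHG6), -0.040 to 0.017 (SNHG7), -0.017 to 0.044 (SNHG8) and -0.073 to 0.062 (SNHG12). SNHG7 ran from -0.038 to 0.582 in HCT15 and from -0.026 to 0.594 in the difference, and SNHG1 between control lines from -0.202 to 0.119 (0.034 with quantile normalization).

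Deviations from the group means over all tested genes had a low r between same-numbered libraries of the 2 arms (-0.042 to -0.025 in HCT116, 0.009 to 0.146 in HCT15). The summed TPM of the hosts was highest in replicate 2 of both HCT15 arms. These values rest on 3 libraries in each arm and cannot decide whether the numbers pair the libraries. With the replicate block HCT15 had 7 host calls and 5479 gene calls, GAS5 losing its call (adjusted p = 0.067), and the difference 4 and 2835.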
